A study of Mus musculus with 2 samples.

Results

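The cells described here are the *Olig2*/*Neurog2* cells of the developing mouse retina, 167 of the 4444 cells kept from the GFP− library (3.76%, 95% exact Clopper-Pearson interval 3.22 to 4.36%) and of 8173 deposited cells in all. They were chosen on their own raw counts: at least 1 *Olig2* and at least 3 *Neurog2* unique molecular identifiers (UMIs, each standing for 1 captured transcript), no *Tfap2b* UMI, at most 1 UMI of *Sncg*, *Nefl* and *Rbpms* together, and a mitochondrial fraction under 0.25, with no upper limit on genes per cell. *Olig2*, *Neurog2* and the excluded genes are therefore no findings, and because all genes were read in the same cells no test between groups of cells was made.

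Retinas came from GFP-positive embryos in 2 litters of the strain Tg(Lhx4::EGFP)KN199Gsat/Mmucd at E14.5. The transgene is a bacterial artificial chromosome in which *Lhx4* regulatory sequence drives GFP, and both sorted fractions carry it. The dissociated cells were pooled before flow sorting, and each gate, GFP+ (labelled as cone photoreceptors) and GFP− (labelled as retinal cells), gave 1 droplet library of 3' transcript ends. With 1 library per gate there were no replicates, so levels are summed UMIs per 1000000 (CPM) with 95% exact Poisson intervals, ratios carry 95% exact conditional intervals, and these intervals cover counting error only.

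In the embryonic retina, multipotent retinal progenitor cells (RPCs) divide and keep Notch signaling on, through effectors such as *Hes1* and *Hes5*. Neurogenic RPCs take up proneural basic helix-loop-helix (bHLH) factors such as *Neurog2* and *Atoh7*, put Notch ligands on their surface and are close to their last division. *Olig2*, a bHLH factor best known from motor neurons and oligodendrocytes, marks a subset of neurogenic RPCs whose early daughters include cones and horizontal cells.

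The *Olig2*/*Neurog2* cells held 1592567 UMIs, with a median of 9295 UMIs per cell (2705 to 18710) and 2877 genes. The other 4277 cells of the library had a median of 9958 UMIs and 3004 genes. The *Neurog2* cells without *Olig2* and the *Atoh7* cells without *Olig2*, defined next, were shallower than the chosen cells, with medians of 8353 and 7889 UMIs. The median mitochondrial share of the 167 chosen cells was 2.23%, against 2.33% in all other cells. Scrublet called 2 of the chosen cells doublets, and none of the 20 barcodes shared with the GFP+ library was theirs. Further groups of the same library served for comparison. The closest was 316 *Neurog2* cells without *Olig2*, which met the same conditions except for an *Olig2* count of 0. The others were 276 *Atoh7* cells without *Olig2* (at least 3 *Atoh7* UMIs and no *Pou4f2*), of which 100 were also in the *Neurog2* group, and 1386 *Sfrp2* progenitors (at least 3 *Sfrp2* UMIs and none of *Neurog2*, *Olig2* or *Atoh7*). All of these groups were held to the chosen cells' limits on *Tfap2b* and on *Sncg*, *Nefl* and *Rbpms*. They are subsets of the 4277 other cells. A set of 735 ganglion-type cells (at least 10 UMIs of *Sncg*, *Nefl* and *Rbpms*) with a median of 14100 UMIs showed how often a UMI was seen in cells of another type.

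*Olig2* was found in 270 kept GFP− cells (6.08%). Of these, 39 had no *Neurog2* UMI, 17 had 1, 5 had 2 and 209 had at least 3. From the 209, 15 left for a *Tfap2b* UMI and 27 for their ganglion cell sum. Just inside the *Neurog2* limit were 7 cells with 3 UMIs, at 1571 CPM of *Hes6* and 121 CPM of *Dll4*, and just outside were the 5 cells with 2 UMIs, at 1839 and 84.9 CPM. At the *Olig2* limit, 54 of the chosen cells had a single UMI, 56 had 2 or 3 and 57 had 4 or more. The 61 *Olig2* cells below the *Neurog2* limit were not held to the limits on *Tfap2b* and ganglion cell genes, which stood at 177 CPM (*Tfap2b*) and 122 CPM (*Sncg*) in them, so their values are not a like comparison. Of these cells 14.8% were called G2M, *Ptf1a*, a factor of amacrine and horizontal cell development, stood at 268 CPM against 4.40 CPM in the chosen cells, and *Crx*, a photoreceptor factor, at 59.0 CPM against 13.2 CPM.

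The 4 genes that mark the label were present. *Olig2* (chr16:91225457-91228677, GRCm38, + strand) ranged from 1 to 10 UMIs per cell with a median of 2, and summed to 310 CPM (283 to 338). *Neurog2* (chr3:127633135-127635631, + strand) ranged from 3 to 103 with a median of 19, and summed to 2228 CPM. *Dll4*, a Notch ligand (chr2:119325784-119335962, + strand), was not used by the rule and had a UMI in 122 cells (73.1%), with a median of 1 and a maximum of 10. It was seen in 1.5% of ganglion-type cells. *Hes6* (chr1:91411483-91414038, − strand), a bHLH-family inhibitor of *Hes1* that is switched on with proneural factors, had a UMI in all 167 cells, from 3 to 78 with a median of 28. Markers of non-neural cells were nearly absent: 6 of 6 microglia and 6 of 6 pigment epithelium markers had no UMI, and the erythroid, vascular, lens and mesenchyme lists summed to 4.40, 15.1, 1.26 and 2.51 CPM, against 365, 52.9, 1.02 and 8.08 CPM in other cells. *Olig1*, the neighbour of *Olig2*, had 11 UMIs in 9 cells. Of the 8 oligodendrocyte lineage genes, *Sox10*, *Cspg4*, *Nkx2-2* and *Gpr17* were at 0, a count that allows up to 3 UMIs, and the list summed to 28.9 CPM with *Mbp* at 18.2 CPM, against 17.6 CPM in other cells and 17.6 CPM in the *Neurog2* cells.

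Most of the *Olig2*/*Neurog2* cells carried transcripts of late cell cycle. By scores of 42 S genes and 54 G2M genes, 120 were called G2M (71.9%, 64.4 to 78.5%), 30 S (18.0%) and 17 G1 (10.2%). Among the other cells 26.7% were called G2M, among the *Neurog2* cells without *Olig2* 36.1% (30.8 to 41.6%), among the *Atoh7* cells 41.7% and among the *Sfrp2* progenitors 38.4%. In cells thinned to 6300 UMIs each, which left out 18 of the chosen cells and 37 of the *Neurog2* cells, the shares were 76.5% and 38.0%. The 54 G2M genes summed to 17732 CPM, against 6754 CPM in the other cells and 8629 CPM in the *Neurog2* cells.

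**Figure D1:**
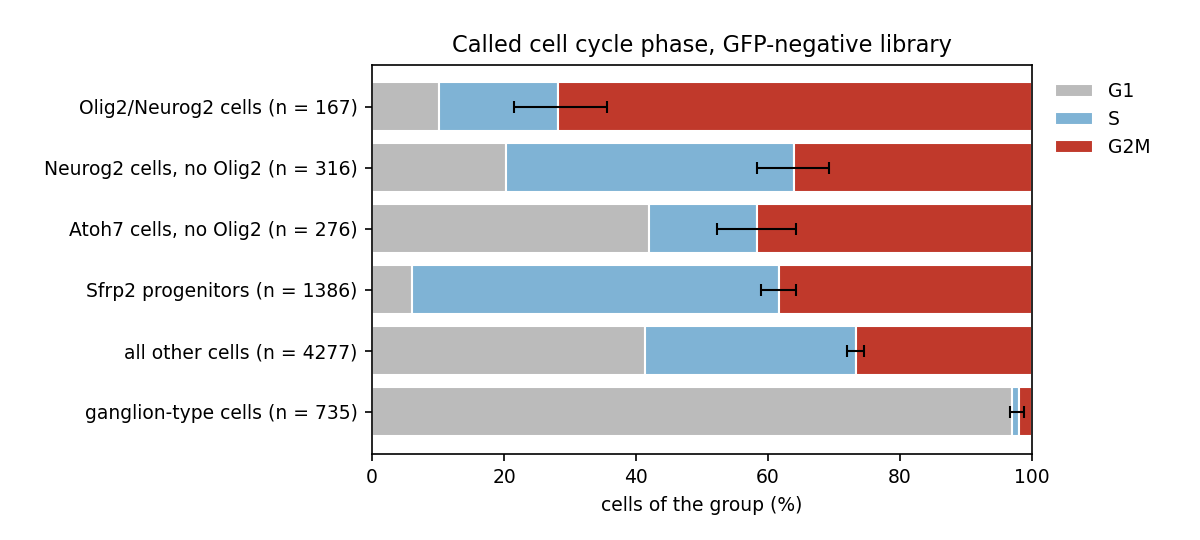
Share of cells (x axis, %) called G1 (grey), S (blue) or G2M (red) in 6 groups of cells of the GFP− library (y axis), with the exact 95% interval of the G2M share drawn at its left edge. The *Olig2*/*Neurog2* cells have 71.9% in G2M, and the *Neurog2* cells without *Olig2* 36.1%.

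Genes were compared by a rule of size, at least 2-fold in CPM among genes with at least 50 CPM in either group, which is not a test. Against all other cells 227 of 3197 genes (7.1%) were at least 2-fold higher and 235 (7.35%) at least 2-fold lower. Against the *Neurog2* cells without *Olig2* the counts were 115 (3.78%) and 66 (2.17%) of 3041. Against the *Sfrp2* progenitors they were 253 (8.03%) and 165 (5.24%) of 3149, and against the *Atoh7* cells 67 (2.18%) and 34 (1.11%) of 3071. The median log2 ratio over all genes compared was 0.08, 0.09, 0.13 and -0.01 in the same order. The lists that follow can be read against these shares.

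Notch ligands were high in the *Olig2*/*Neurog2* cells. All 3 of the 5 listed ligands that reached the floor, *Dll1*, *Dll3* and *Dll4*, were at least 2-fold higher than in other cells, with a list median of 2.77 on the log2 scale. *Dll4* stood at 191 CPM (170 to 214) against 8.39 CPM in other cells, a ratio of 22.8 (19.5 to 26.5), and its ratio over the *Neurog2* cells was 3.17 (2.62 to 3.85). *Dll1* stood at 114 CPM and *Dll3*, which is thought to act inside the cell, at 193 CPM. Their ratios over the *Neurog2* cells, 1.45 (1.19 to 1.78) and 1.86 (1.58 to 2.18), did not reach 2. *Jag1* and *Jag2*, the other ligands, had 10 UMIs and 1 UMI. Among cells with at least 8000 UMIs the *Dll4* ratio over the *Neurog2* cells was 5.46. After thinning, 57.0% of the chosen cells and 22.6% of the *Neurog2* cells had a *Dll4* UMI.

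Receptors and fringe genes showed a mixed picture. The receptor *Notch1* stood at 146 CPM, 3.05-fold over other cells and 1.60-fold over the *Neurog2* cells. *Mfng*, a glycosyltransferase that modifies Notch, stood at 154 CPM and differed little from the *Neurog2* cells (157 CPM). Its relative *Lfng* stood at 23.2 CPM against 134 CPM in the *Atoh7* cells, 5.75-fold lower. The 8 genes of ligand processing, among them *Mib1*, all lay below 50 CPM in every group compared, and summed to 105 CPM.

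Several readouts of Notch signaling were low. Of 7 effector genes compared with other cells, *Hes1*, *Id3*, *Id2* and *Nrarp* were at least 2-fold lower, and *Rbpj*, the DNA-binding partner of the Notch intracellular domain, was 4.13-fold higher (3.72 to 4.58). *Hes1* stood at 41.4 CPM (32.1 to 52.7), against 262 CPM in the *Neurog2* cells and 600 CPM in the *Sfrp2* progenitors, and had a UMI in 33 of 167 cells (19.8%). *Nrarp*, a feedback inhibitor that Notch itself turns on, stood at 17.6 CPM against 64.4 CPM in the *Neurog2* cells. *Hes5*, another effector, stood at 291 CPM (265 to 319), with a ratio of 1.10 over other cells (0.996 to 1.2) and 0.647 over the *Neurog2* cells (0.581 to 0.720). Among cells called G2M its ratio over other cells was 0.753 (0.677 to 0.836). It ranged from 0 to 28 UMIs per cell and was found in 86 cells. The *Atoh7* cells had more of these genes, with *Hes5* at 1146 CPM, *Hey1* at 86.2 CPM against 6.28 CPM and *Nrarp* at 90.7 CPM. *Dll4* and *Hes1* were found together in 24 cells, *Dll4* alone in 98, *Hes1* alone in 9 and neither in 36.

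Genes of multipotent RPCs were lower than in 3 of the 4 comparison groups, and much less so against the *Atoh7* cells. Of 18 compared with other cells, 11 were at least 2-fold lower and none higher (list median -1.22), and against the *Neurog2* cells 9 of 17 were lower (-1.34). Against the *Sfrp2* progenitors 14 of 19 were lower (-2.03), counting *Sfrp2*, which chose that group, and against the *Atoh7* cells 2 of 15 (*Hes1* and *Fgf15*, -0.43). Among cells called G2M the ratios of *Hes1* and *Fgf15* to the *Atoh7* cells were 0.132 and 0.261. Among cells called S they were 0.646 (0.400 to 1.02) and 0.655 (0.512 to 0.833), not past 2-fold. *Sfrp2*, a secreted Wnt modulator, stood at 78.5 CPM against 692 CPM in the *Neurog2* cells, 8.82-fold lower, and *Fgf15*, a growth factor of progenitors, at 166 CPM against 979 CPM, 5.91-fold lower. *Col9a1*, a collagen chain, and *Cp*, ceruloplasmin, were the lowest of all in that comparison, at 8.16 CPM against 79.9 and 6.28 CPM against 55.6. *Sox2* and *Lhx2* were between the limits, at 212 and 153 CPM with ratios to the *Neurog2* cells of 0.867 and 0.658. *Ccnd1*, the D cyclin of early RPCs, stood at 857 CPM against 2167 CPM (2.53-fold lower). Among cells called G2M its ratio to the *Neurog2* cells was 0.322 (0.295 to 0.350), and among cells called S 0.735 (0.671 to 0.803). The S ratio was not past 2-fold, nor were those to other cells (0.952) and to the *Sfrp2* progenitors (0.989).

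**Figure D2:**
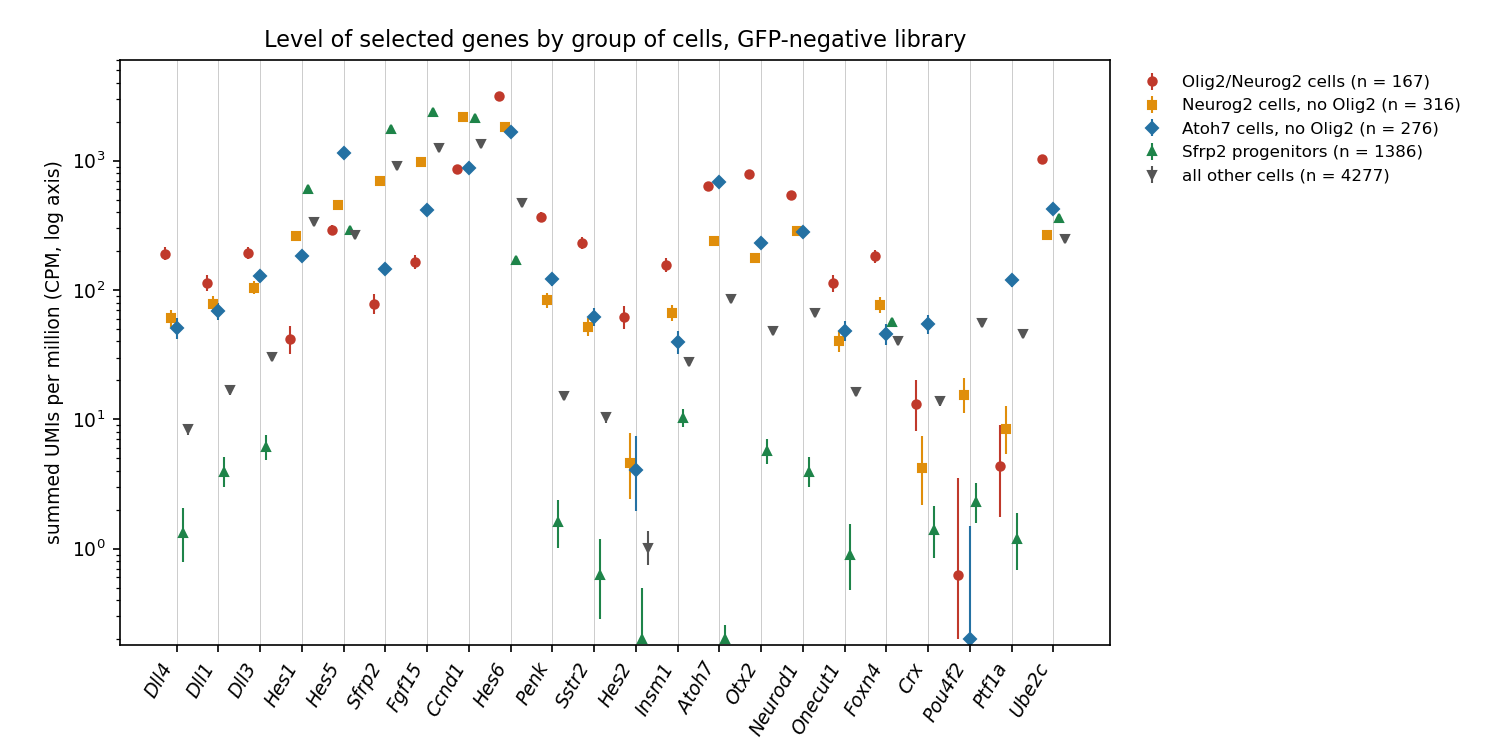
Summed UMIs per 1000000 (CPM, y axis, log scale) of 22 genes (x axis) in 5 groups of cells, with 95% exact Poisson intervals. Points at the lower edge are at or under 0.2 CPM. Red points (*Olig2*/*Neurog2* cells) lie highest for *Dll4*, *Penk*, *Sstr2*, *Hes2* and *Otx2*, and lowest for *Hes1*, *Sfrp2* and *Fgf15*.

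Proneural and neurogenic genes were mostly higher than in other cells. Of 10 bHLH genes compared with other cells, 6 were at least 2-fold higher, *Olig2* and *Neurog2* of the rule among them, and *Nhlh2*, a factor of differentiating neurons, was lower. Against the *Neurog2* cells 2 of 9 were higher, *Olig2* of the rule and *Atoh7*, and against the *Atoh7* cells 3 of 10, *Olig2* and *Neurog2* of the rule among them, with *Neurod4* lower. *Atoh7*, needed for ganglion cells, stood at 637 CPM (599 to 678), 7.54-fold over other cells and 2.65-fold over the *Neurog2* cells (2.40 to 2.92), and had from 0 to 21 UMIs per cell with a median of 5. Its level did not differ from that of the cells chosen on *Atoh7* beyond counting error (679 CPM, ratio 0.939, 0.868 to 1.02). *Neurod1*, a factor of photoreceptor and amacrine cell differentiation, stood at 546 CPM, 8.16-fold over other cells and 1.90-fold over the *Neurog2* cells. *Neurog2* itself was at 2228 CPM against 1118 CPM in the *Neurog2* cells without *Olig2*, so the pair were not matched on the factor that chose them both.

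Of 15 genes of the neurogenic transition compared with other cells, 11 were at least 2-fold higher (list median 2.29) and *Cdkn1c*, which encodes an inhibitor of the cell cycle, was lower, at 109 CPM against 244 CPM. *Hes6* stood at 3182 CPM, 6.71-fold higher. *Btg2*, which marks dividing cells about to make neurons, stood at 715 CPM, 6.53-fold higher, and *Gadd45a*, a growth arrest gene, at 1792 CPM, 4.87-fold higher. *Insm1*, a zinc finger factor of late neurogenic progenitors, stood at 156 CPM and was 3.94-fold higher (3.11 to 5.03) than in the *Atoh7* cells. Against the *Neurog2* cells 5 of 15 passed the limit, *Penk*, *Sstr2*, *Mybl1*, *Insm1* and *Eya2* (list median 0.71). Against the *Atoh7* cells 5 of 15 did, with a list median of 0.05.

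Proneural and Olig factors bind E-box motifs, so the starts of some of these genes were searched for CAGATG, which is CATCTG on the other strand, and for CAGCTG, which reads the same on both strands. The windows were those of RefSeq (GRCm38.p6), 300 bases from 250 before to 50 after each start. *Hes6* had CAGCTG in 2 of its 2 windows, *Dll1*, *Dll3* and *Gadd45g* in 1 each, *Atoh7* had CAGATG, *Otx2* had CAGATG or CATCTG in 1 of 4, and the windows of *Dll4*, *Olig2*, *Neurog2*, *Sstr2* and *Neurod1* had neither. *Hes1*, *Hes2* and *Penk* were not searched. The stretches before *Hes6* and *Atoh7*, genes found in nearly every chosen cell, are shown as examples that hold a motif. *Neurod1* was also found in most chosen cells, and its window had neither motif. The *Hes6* stretch is chr1:91414039-91414288 (− strand) and the *Atoh7* stretch chr10:63099535-63099650 (+ strand, ending at the annotated start), both 5′ to 3′ with the motif in capitals.
Hes6: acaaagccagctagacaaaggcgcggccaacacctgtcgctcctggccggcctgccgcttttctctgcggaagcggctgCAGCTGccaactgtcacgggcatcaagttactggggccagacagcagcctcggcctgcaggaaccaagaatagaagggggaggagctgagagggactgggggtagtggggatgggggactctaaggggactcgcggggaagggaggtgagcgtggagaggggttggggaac
Atoh7: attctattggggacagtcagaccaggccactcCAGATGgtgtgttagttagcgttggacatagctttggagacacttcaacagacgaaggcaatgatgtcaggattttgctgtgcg
CAGATG or CATCTG was in 11.8% of the 195 windows of the higher genes (163 of 227 matched), 12.8% of those of the lower genes (168 of 235 matched), 9.91% of those of all genes compared and 17.2% of all 32851 windows. For CAGCTG the shares were 15.9, 21.1, 12.1 and 16.3%. Both shares of the higher genes were below those of the lower genes and of all windows, and above those of all genes compared. None of these differences was tested.

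*Hes2*, *Penk* and *Sstr2* were among the 10 highest genes in each of the 4 comparisons. *Hes2*, a Hes-family repressor, had 98 UMIs in 65 cells (38.9%), or 61.5 CPM, against 46 UMIs and 1.02 CPM in the other 4277 cells. That is a ratio of 60.4 (42.2 to 87.8), and 13.4 (7.51 to 26.1) over the *Neurog2* cells and 15.2 (7.93 to 32.7) over the *Atoh7* cells. It was found in 0.41% of ganglion-type cells. *Penk*, the precursor of enkephalin peptides, had from 0 to 21 UMIs per cell with a median of 2 and stood at 370 CPM (341 to 401), 24.4-fold over other cells and 4.43-fold over the *Neurog2* cells. *Sstr2*, a somatostatin receptor, had from 0 to 11 UMIs with a median of 2 and stood at 230 CPM (207 to 255), 22.3-fold and 4.42-fold higher (8.12-fold over the *Neurog2* cells among cells with at least 8000 UMIs). *Mybl1*, a Myb-family factor, and *Pkib*, an inhibitor of protein kinase A, were also among the 10 highest against other cells, at 11.2-fold and 10.6-fold.

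*Otx2*, the homeobox factor required for photoreceptors, stood at 794 CPM (751 to 839), against 48.3 CPM in other cells and 175 CPM in the *Neurog2* cells, ratios of 16.4 (15.3 to 17.6) and 4.53 (4.08 to 5.03). Among cells with at least 8000 UMIs these ratios were 34.1 and 9.10. It had from 0 to 25 UMIs per cell with a median of 6, and was found in 153 cells (91.6%) against 4.08% of ganglion-type cells. Some photoreceptor genes were found in few or none of the cells, while *Neurod1* and *Prdm1* were found in more. *Crx* stood at 13.2 CPM (8.16 to 20.2), close to the 13.8 CPM of other cells and above the 4.23 CPM (12 UMIs) of the *Neurog2* cells, and was found in 11 cells. Among cells called G2M it stood at 7.43 against 1.43 CPM in other cells (5.20-fold, 2.07 to 12.1), on 9 UMIs in 6 cells, and all 6 of its UMIs in cells called S were in 1 cell. *Gngt2*, *Lhx4*, *Rd3*, *Rcvrn*, *Rbp3* and *Nr2e3* had no UMI. *Thrb* had 4 UMIs and *Rxrg* 1, both genes of cones. *Prdm1*, a repressor that favours photoreceptors over bipolar cells, had 59 UMIs in 44 cells (37.1 CPM), 4.57-fold over the *Neurog2* cells (2.78 to 7.76).

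*Otx2* and *Atoh7* were found together. Of 167 cells 148 had both (88.6%, 82.8 to 93%), 5 only *Otx2*, 11 only *Atoh7* and 3 neither. *Atoh7* was found in 96.7% (92.5 to 98.9%) of the 153 cells with *Otx2* and in 78.6% (49.2 to 95.3%) of the 14 without. Each gene was common, so a high count of both does not by itself show a link between them. After thinning 124 of 149 had both (83.2%, 76.2 to 88.8%). *Otx2* and *Neurod1* were found together in 146 cells, *Otx2* and *Foxn4*, a factor of amacrine and horizontal cells, in 106, and *Otx2* and *Crx* in 10. Scaled to each cell's depth and logged, *Otx2* and *Atoh7* had a Pearson r of 0.24 and a Spearman rho of 0.19. These values over the 167 cells are given as a description, since the cells share a library and differ in depth.

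**Figure D3:**
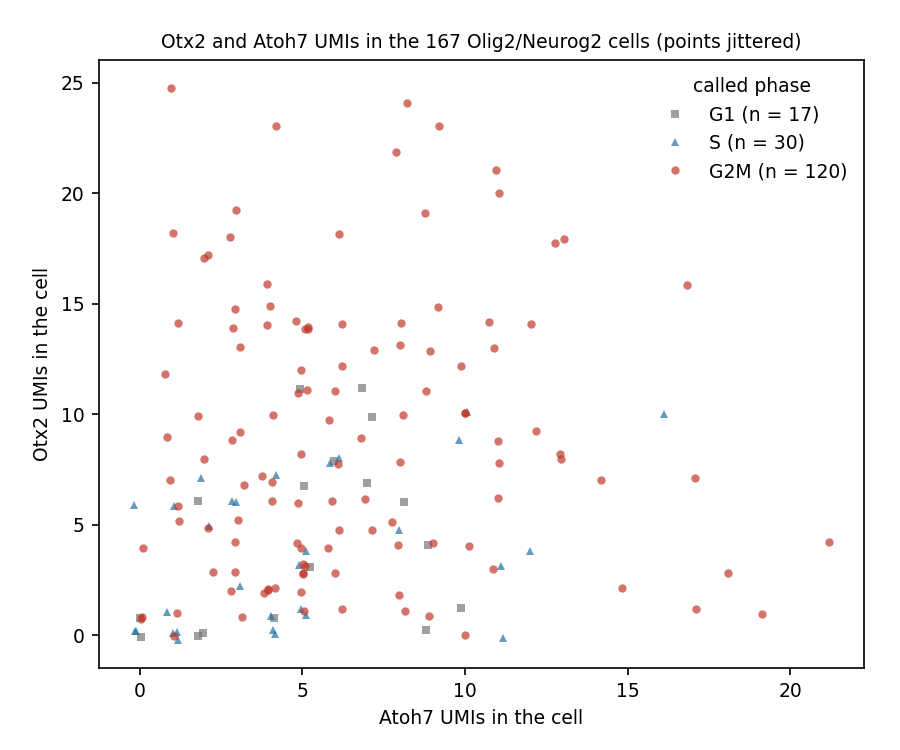
*Otx2* UMIs (y axis) against *Atoh7* UMIs (x axis) in each of the 167 *Olig2*/*Neurog2* cells, coloured by called phase, with points shifted slightly at random so that they do not hide each other. The 3 cells with neither gene sit at the origin, and 148 cells have at least 1 UMI of both.

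Amacrine and horizontal cell genes were divided. *Onecut1*, a factor of cone and horizontal cell fates, stood at 113 CPM, 6.89-fold over other cells and 2.82-fold over the *Neurog2* cells (2.21 to 3.59). *Foxn4* stood at 183 CPM, 4.52-fold and 2.38-fold higher, and *Dlx1* and *Dlx2* were at least 2-fold higher than in other cells. Over other cells *Foxn4* was 2.81-fold higher among cells called G2M and 2.88-fold among cells called S. Over the *Neurog2* cells it was 2.19-fold and 1.86-fold higher, the latter not past 2-fold. *Onecut1* over other cells was 11.7-fold and 16.1-fold higher, the latter on 11 UMIs in the chosen cells. *Ptf1a*, which acts after *Foxn4*, had 7 UMIs, or 4.40 CPM, against 45.5 CPM in other cells and 119 CPM in the *Atoh7* cells, but among cells called G2M its ratios to them were 0.999 (0.312 to 2.47) and 0.553 (0.146 to 1.84). The *Neurog2* cells, which like the chosen cells hold no *Tfap2b* by rule, stood at 8.45 CPM. The *Atoh7* cells were held to the same *Tfap2b* limit, but were not chosen on *Neurog2*. They were more often called G1 (42.0% against 10.2% of the chosen cells), and the part of phase in these differences was not tested. *Meis2*, *Dlx1* and *Dlx2* were also at least 2-fold lower than in the *Atoh7* cells, and *Insm2* and the neuropeptide gene *Gal* were 13.6-fold and 9.71-fold lower. Since 1 cell held 108 of the 178 *Gal* UMIs, *Gal* was 24.5-fold lower without it. Of the bipolar cell list *Vsx1*, *Bhlhe23*, *Grm6* and *Scgn* had no UMI, and no gene was past 2-fold. Ganglion cells were removed by the rule, so the low level of their genes against other cells (323 CPM summed over the list, with 1 UMI each of *Pou4f2* and *Dcx*) is no finding. The *Neurog2* cells, under the same limit, had 346 CPM, and the 1 gene of that list compared with them was not past 2-fold.

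Against the *Neurog2* cells many of the higher genes were genes of mitosis. Of 46 G2M genes compared 28 were at least 2-fold higher and none lower (list median 1.13), *Ube2c*, which works with the anaphase-promoting complex, at 1038 CPM against 266 CPM, and the cyclin *Ccnb1* at 414 CPM against 113 CPM. Of 14 cyclins and cell cycle inhibitors 6 were higher and *Ccnd3* and *Ccnd1* lower. Of 29 S genes none was higher, and *Ung*, *Gins2*, *Cdca7* and *Mcm4* were lower. The inhibitor *Cdkn2c* was higher with the G2M genes, 2.88-fold (2.07 to 4.05).

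The comparison was therefore repeated with cells called G2M alone, 120 *Olig2*/*Neurog2* cells against 114 *Neurog2* cells. There 62 of 3070 genes (2.02%) were at least 2-fold higher and 56 (1.82%) lower. Of the 115 higher genes 44 stayed past the limit and of the 66 lower genes 46. Of 49 G2M genes only 3 were still at least 2-fold higher. *Ube2c* kept a ratio of 2.13 (1.95 to 2.33) and *Ccnb1* 2.02 (1.76 to 2.33). *Hes2* stood at 8.25-fold (4.28 to 17.8), *Otx2* at 4.14-fold (3.59 to 4.78), *Sstr2* at 3.13-fold, *Penk* at 2.94-fold, *Dll4* at 2.84-fold (2.21 to 3.68) and *Atoh7* at 2.21-fold, and *Dll3* passed the limit, at 2.35-fold (1.84 to 3.02). On the other side *Hes1* was at a ratio of 0.0994 (0.0688 to 0.14), *Sfrp2* at 0.0953 and *Fgf15* at 0.127. Among cells called S, 30 against 138, the counts were larger, with 154 of 3051 genes (5.05%) higher and 91 (2.98%) lower, on 268298 UMIs of the chosen cells. There *Otx2* stood at 6.22-fold (4.66 to 8.35), *Sstr2* at 31.8-fold (12.4 to 104), on 5 UMIs in the *Neurog2* cells, *Atoh7* at 4.29-fold (3.40 to 5.42) and *Hes1* at a ratio of 0.367 (0.241 to 0.540). Against all other cells called G2M, 1142 in number, 151 of 3118 genes (4.84%) were higher and 123 (3.94%) lower, with *Otx2* at 17.0-fold, *Dll4* at 14.9-fold and *Hes2* at 24.7-fold (16.9 to 36.8).

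**Figure D4:**
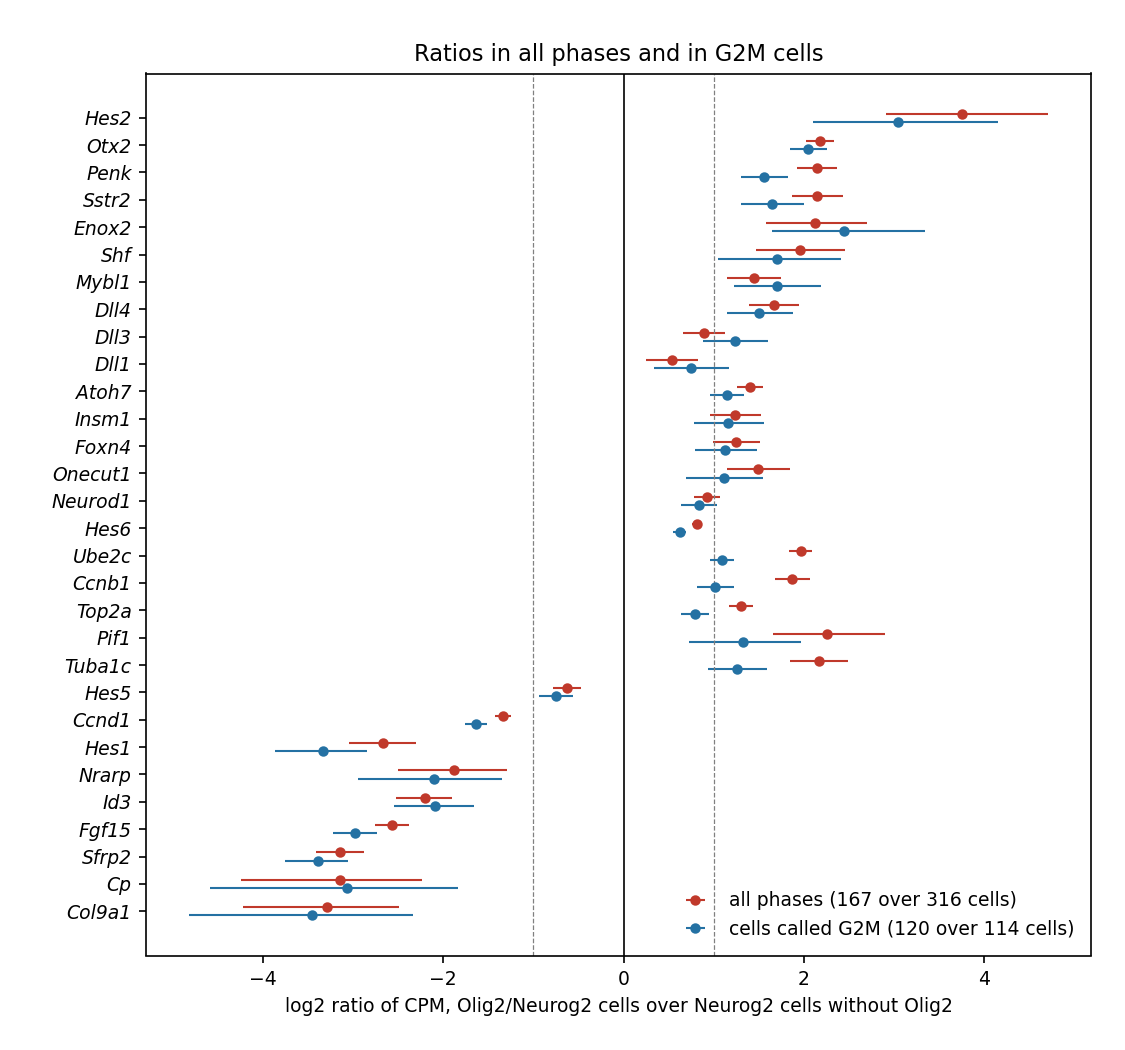
Log2 ratio of CPM (x axis) of the *Olig2*/*Neurog2* cells over the *Neurog2* cells without *Olig2* for 30 genes (y axis), in all phases (red) and in cells called G2M (blue), with 95% intervals and dashed lines at 2-fold. *Ube2c*, *Ccnb1* and *Pif1* move toward 0 in G2M cells but stay past 2-fold (ratios of 2.13, 2.02 and 2.51), as do *Otx2* (4.53 in all phases and 4.14 in G2M) and *Hes1* (0.158 and 0.0994).

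The cells also varied with their called phase, and those called G1 and S were shallower (medians of 6546 and 7918 UMIs) than those called G2M (9943 UMIs). The 30 cells called S had the most of the multipotent genes, with *Ccnd1* at 2091 CPM (1921 to 2271), *Hes1* at 104 CPM (69.3 to 151) and *Fgf15* at 369 CPM, against 609, 30.6 and 130 CPM in the 120 G2M cells. *Otx2* stood at 421 CPM in S and 888 CPM in G2M, and *Hes2* at 29.8 CPM and 74.3 CPM. The 17 cells called G1 had no *Ccnb1* and no *Hes2* UMI. *Neurod4*, a late proneural factor, stood at 273 CPM (186 to 388) in them against 9.91 CPM in G2M, *Sox4*, a factor of young neurons, at 1771 CPM against 515 CPM, *Gadd45a* at 3180 CPM against 1617 CPM, and *Cdkn1c* at 405 CPM against 85.1 CPM. *Foxn4* had 1 UMI in G1 cells and 203 CPM in G2M cells. *Crx* stood at 52.9 CPM (19.4 to 115) in G1 cells, on 6 UMIs.

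Cells with more *Olig2* UMIs were deeper (medians of 7947.5, 9283 and 9970 UMIs at 1, 2 or 3, and 4 or more) and more often called G2M (57.4, 69.6 and 87.7%). The part of depth and phase in what follows was not tested. *Otx2* stood at 510 CPM (448 to 580), 836 CPM (760 to 918) and 978 CPM (900 to 1061) in the same order, and *Hes2* at 30.03, 56.4 and 90.9 CPM. *Ccnd1* stood at 1407, 778 and 497 CPM. *Penk* and *Sstr2* were lower at 1 UMI (270 and 157 CPM) than at 2 or 3 (428 and 254 CPM), and at 4 or more they stood at 396 and 268 CPM, within counting error of the middle group. *Neurod1* showed no such order, at 596, 522 and 527 CPM. *Gal* stood at 270 CPM in cells with 1 *Olig2* UMI, and without the cell that held 108 UMIs at 39.6 CPM (23.5 to 62.6), within counting error of the 45.1 and 47.1 CPM of the other groups.

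**Figure D5:**
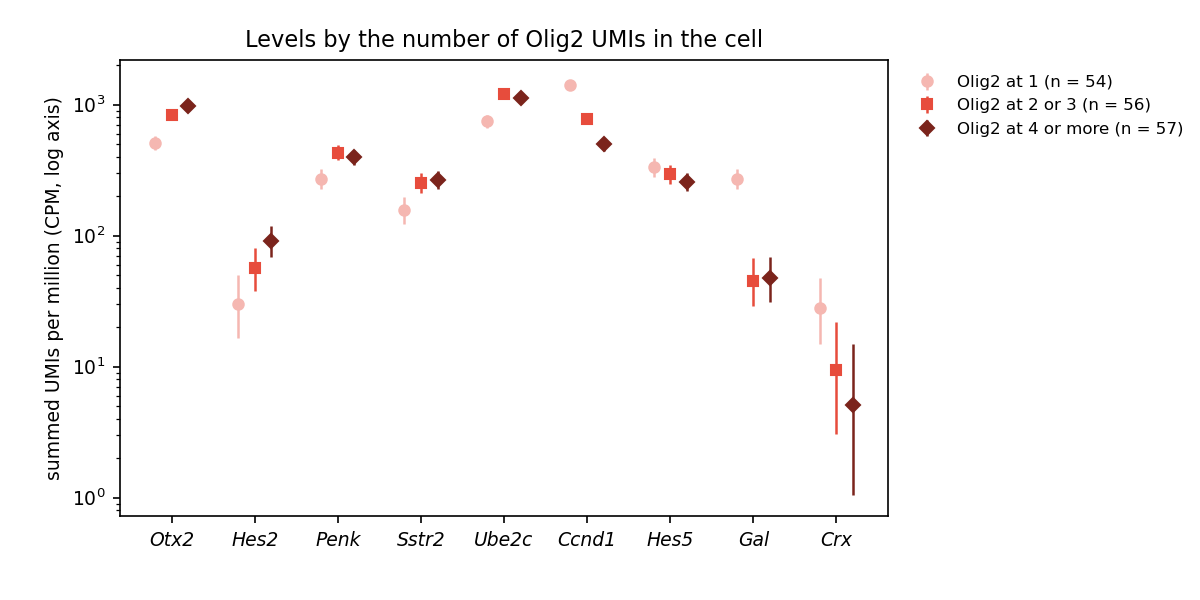
Summed UMIs per 1000000 (CPM, y axis, log scale) of 9 genes (x axis) in *Olig2*/*Neurog2* cells with 1, 2 or 3, and 4 or more *Olig2* UMIs (light to dark), with 95% exact Poisson intervals. *Otx2* and *Hes2* are higher and *Ccnd1* lower in cells with more *Olig2* UMIs.

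Of 3 stress and immediate early genes compared with other cells none reached 2-fold in either direction, with a list median of -0.19, and the heat shock gene *Hspa1a* had 2 UMIs. The list summed to 407 CPM against 537 CPM in other cells.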

How the data were processed

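Cells of *LHX4::GFP* retinas at E14.5 were sorted into GFP+ and GFP− fractions and read as 1 library each. The authors deposited filtered UMI counts per gene and cell, made with Cell Ranger 2.1.1 and the mm10 (GRCm38) reference and not normalized. The count matrices hold 28692 genes, and the libraries 46778924 (GFP−) and 16010591 (GFP+) UMIs. The study's mitochondrial limit was read as a fraction of 0.25, which removed 1 GFP− cell. Its upper limit of 3500 genes was used only as an alternative.

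The cells and gene lists described here were chosen with earlier results of these data known. UMIs were summed per group and given per 1000000. Genes with at least 50 CPM in either group were compared by ratio, without a test, because there is 1 library and cells are not replicates. A count of 0 was taken to allow up to 3. Phases were called with scanpy 1.11.5, and doublets with Scrublet at an expected rate of 0.03, which marked 55 GFP− cells (1.24%). Doublets were left in. For shares, each cell was thinned to 6300 UMIs, near the 10th percentile of depth. The genes named are the 4 markers of the label, the members of 22 gene lists, and the 10 highest and 10 lowest ratios in each comparison. Some genes that this rule names are not reported here. *Gal* within the *Olig2* groups and the cells around the limits were added after their values were seen. Positions are those of GENCODE vM21 and promoter windows those of RefSeq. The interval code was tested on simulated data. Sums and intervals came from scipy 1.17.1 under Python 3.11.15 (numpy 2.4.6, pandas 2.3.3), with edgeR 4.0.16 and DESeq2 1.42.0 (R 4.3.3) only for alternative scaling factors. The alternatives were other limits on cells and genes, G2M cells alone, means over cells and these factors.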

Additional observations from a re-analysis of the deposited data

Results flagged for a closer look

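An *Olig2* UMI was also found in 134 cells of the GFP+ library (3.59%, 3.02 to 4.24%), which the comparisons do not use. A count of 0 would allow 3. The share in ganglion-type cells of the GFP− library was 0.68%, at a median of 14100 UMIs against 4330 in these 134 cells, and no background share for the GFP+ library was measured. Of the 134, 109 had exactly 1 UMI and the maximum was 4, against 13 in the GFP− library. Only 3 GFP+ cells met the rule used here. The 134 cells had *Otx2* at 1368 CPM, *Crx* at 729 CPM and *Gngt2* at 1572 CPM, against 1471, 815 and 1846 CPM in the 3594 GFP+ cells without *Olig2*, and *Neurog2* at 88.5 CPM and *Top2a* at 28.5 CPM, against 6.97 and 6.26 CPM. The 3 cells that met the rule held 52 of the 59 *Neurog2* UMIs and 17 of the 19 *Top2a* UMIs. In cells thinned to 6300 UMIs, 25 of 307 GFP+ cells (8.14%) and 192 of 4002 GFP− cells (4.80%) had an *Olig2* UMI. Since 3421 GFP+ cells were too shallow for this, no order of the libraries was read from it.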

How the results depend on the processing

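Of 220 gene ratios recomputed for the genes named most often, none changed direction and 219 stayed past 2-fold, but 66 lay outside their counting interval. Among cells with at least 8000 UMIs *Otx2* went from 16.4 to 34.1 over other cells and from 4.53 to 9.10 over the *Neurog2* cells, and *Sstr2* and *Dll4* over the *Neurog2* cells from 4.42 to 8.12 and from 3.17 to 5.46. In G2M cells alone *Hes2*, *Penk*, *Dll4*, *Hes1* and *Sfrp2* over other cells went to 24.7, 12.6, 14.9, 0.0600 and 0.0486. In cells called S alone, a comparison chosen after seeing the data, 154 genes were higher and 91 lower than in the *Neurog2* cells. Per-cell means gave 11.3 for *Otx2* over other cells. *Gal* was not among these. Without the cell with most *Gal* UMIs, also chosen after seeing the data, the *Gal* ratio over the *Neurog2* cells went from 1.51 to 0.599, changing direction, and that over other cells from 0.374 to 0.148. The exception to 2-fold was *Ube2c* over other cells, 1.69 in G2M cells alone. Scaling factors moved the median of all genes by at most 0.07 on the log2 scale. With at least 10 UMIs in both groups together, the genes higher and lower were 1011 and 4213 against other cells, 546 and 1039 against the *Neurog2* cells, 1084 and 2426 against the *Sfrp2* progenitors, and 394 and 721 against the *Atoh7* cells. At 20 CPM they were 391 and 598, 226 and 201, 456 and 452, and 136 and 103. At 1.5-fold they were 517 and 427, 333 and 148, 591 and 347, and 247 and 128. In G2M cells alone they were 151 and 123 against other cells and 62 higher than in the *Neurog2* cells, and 95.8% of cells had *Otx2* and *Atoh7*. With *Olig2* at 2 or more they were 117 and 55 against the *Atoh7* cells, 78.8% were in G2M and 95.6% had *Otx2* and *Atoh7*. Among cells with at least 8000 UMIs, 110 met the rule, 85.5% in G2M, 1.82% in G1 and 95.5% with *Otx2* and *Atoh7*. The cause of these shifts was not tested, apart from the looser limits, which call more genes by construction. Other limits on mitochondrial share, genes per cell, doublets and *Neurog2*, thinning, per-cell means and both scalings kept each count within 1.5 times and each share within its interval. No paired analysis was possible because each gate gave 1 library. Genes under about 50 CPM, such as *Crx*, rest on few UMIs.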
